A study of Mus musculus with 3 samples.

Results

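A set of 10 redox defence genes was followed through the irradiated mouse lung, cell type by cell type. The genes were Sod1, Sod2, Sod3, Cat, Gpx3, Hmox1, Nqo1, Gclm, Txnrd1 and Prdx6, out of 22954 genes in the tables, and redox defence is one proposed basis of the sparing of normal tissue by FLASH radiotherapy. They were listed by name, with earlier results of these data known, which limits the counts of members below. All 3 libraries came from wild-type (WT) female C57BL6/J mice examined 5 months after 13 Gy to the whole thorax, with 1 mouse and 1 library each. The CONV mouse received the dose at a conventional rate and no drug. The CONV AsiDNA mouse received the same conventional irradiation after AsiDNA, a short double-stranded DNA that mimics a DNA break, given at 100 mg/kg on each of 2 days and at 200 mg/kg on the day of irradiation. The FLASH mouse received the dose at an ultra-high rate and no drug. The study's methods give 8 to 9 weeks as the age of its mice unless stated otherwise, and no other age is stated for the thorax irradiation. Lungs without irradiation were left out of the analysis. Because each condition had 1 mouse, no difference could be tested against the spread between mice, so every comparison describes these libraries and carries no p-value.

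Superoxide is turned into hydrogen peroxide by the superoxide dismutases, and the peroxide is then removed by catalase, glutathione peroxidases and peroxiredoxins. A further layer of defence is inducible. The transcription factor Nrf2, encoded by Nfe2l2, is held and degraded through Keap1, and oxidants or electrophiles release it to enter the nucleus, where it competes with Bach1 at antioxidant response elements. Hmox1, Nqo1, Gclm and Txnrd1 are among its classical targets. In the airway, club cells carry much of the metabolism of inhaled chemicals.

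The cells were placed in classes by marker genes, and 19017 of 19622 cells (96.9%) received a class. Of 22 classes, 19 held at least 20 cells in every library and could be compared, from alveolar macrophage-like (AM-like) and interstitial macrophage-like (IM-like) cells to alveolar type 1- and type 2-like (AT1-like and AT2-like), endothelial-like (EC-like) and smooth muscle and pericyte-like (SMC and pericyte-like) cells. The libraries held 6372, 6983 and 6267 cells for CONV, CONV AsiDNA and FLASH, with median cell totals of 3450 to 3678 adjusted counts and median mitochondrial shares of 0.628%, 0.180% and 1.35%. The tables hold whole numbers that the authors had already adjusted, so levels are sums over a class scaled to 1000000 adjusted counts (adjusted CPM), and a gene without counts is said to be listed at 0. A listing at 0 is not absence. Ftl1, a ferritin gene that nearly every cell uses, had no counts in 8 of the 19 classes in the CONV library. It had none in 3 classes with CONV AsiDNA and in 2 with FLASH. Gm42418, a gene that picks up ribosomal RNA reads, was above 0 in 93.0% of CONV cells, 93.9% of CONV AsiDNA cells and 5.15% of FLASH cells, so the FLASH library stood apart in at least this gene. Shares of cells carry 95% intervals by the exact Clopper-Pearson method, and these reflect only how many cells were sampled.

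The promoters of the members are shown because some of the members are known Nrf2 targets. A RefSeq promoter (GRCm38.p6, from 250 bases before to 50 after the start) was matched for 7 of the 10 members. The core of the antioxidant response element, spelled TGACNNNGC and searched on both strands, was present for 3 of the 7, in the promoters of Sod1 and Gclm and in 1 of the 3 Txnrd1 promoters, while 12.4% of all 32851 promoters of this length and 14.0% of 27025 genes held it. The 250 bases before the start follow for those 3 and for Nqo1, 5′ to 3′ along the gene, with each match in capitals. A match is a run of letters and not a measured binding site. All 3 matches lie on the strand opposite to the gene.
Gclm, chr3:122245307-122245556, plus strand: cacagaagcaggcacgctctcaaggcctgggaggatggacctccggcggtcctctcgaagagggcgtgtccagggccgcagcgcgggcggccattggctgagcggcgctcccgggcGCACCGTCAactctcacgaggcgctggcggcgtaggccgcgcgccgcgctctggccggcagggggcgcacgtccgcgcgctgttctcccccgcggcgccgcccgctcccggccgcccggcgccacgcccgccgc
Txnrd1, chr10:82858956-82859205, plus strand: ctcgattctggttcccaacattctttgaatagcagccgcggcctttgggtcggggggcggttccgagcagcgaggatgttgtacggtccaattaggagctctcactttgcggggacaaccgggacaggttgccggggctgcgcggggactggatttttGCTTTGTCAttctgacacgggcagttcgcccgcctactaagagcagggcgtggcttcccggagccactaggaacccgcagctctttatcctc
Sod1, chr16:90220512-90220761, plus strand: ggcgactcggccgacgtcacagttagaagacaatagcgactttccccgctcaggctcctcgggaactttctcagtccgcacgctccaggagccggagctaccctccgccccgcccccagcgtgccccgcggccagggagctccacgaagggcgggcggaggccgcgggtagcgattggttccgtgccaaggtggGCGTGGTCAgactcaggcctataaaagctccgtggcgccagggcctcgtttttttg
Nqo1, chr8:107403206-107403455, minus strand: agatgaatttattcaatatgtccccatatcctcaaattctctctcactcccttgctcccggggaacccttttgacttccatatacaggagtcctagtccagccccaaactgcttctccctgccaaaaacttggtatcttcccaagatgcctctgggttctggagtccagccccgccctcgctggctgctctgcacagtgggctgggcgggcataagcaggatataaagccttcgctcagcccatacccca

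Across the 19 classes the members peaked in different cells. Sod3, the secreted superoxide dismutase, and Gpx3, the secreted glutathione peroxidase, were listed at 0 in every library in 15 of 19 classes each, and stood highest in fibroblast-like cells. Prdx6, a peroxiredoxin with phospholipase activity, was highest in AT1-like cells, Cat in AT2-like cells and Hmox1 in IM-like cells. Sod1, Sod2, Nqo1, Gclm and Txnrd1 had their highest mean over the libraries in ciliated-like cells.  The ranges over the libraries of the highest class and the next did not overlap for Sod1, Sod3, Cat, Gpx3, Gclm, Txnrd1 and Prdx6, and did for Sod2, Hmox1 and Nqo1, whose order at the top is not resolved.

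**Figure D1:**
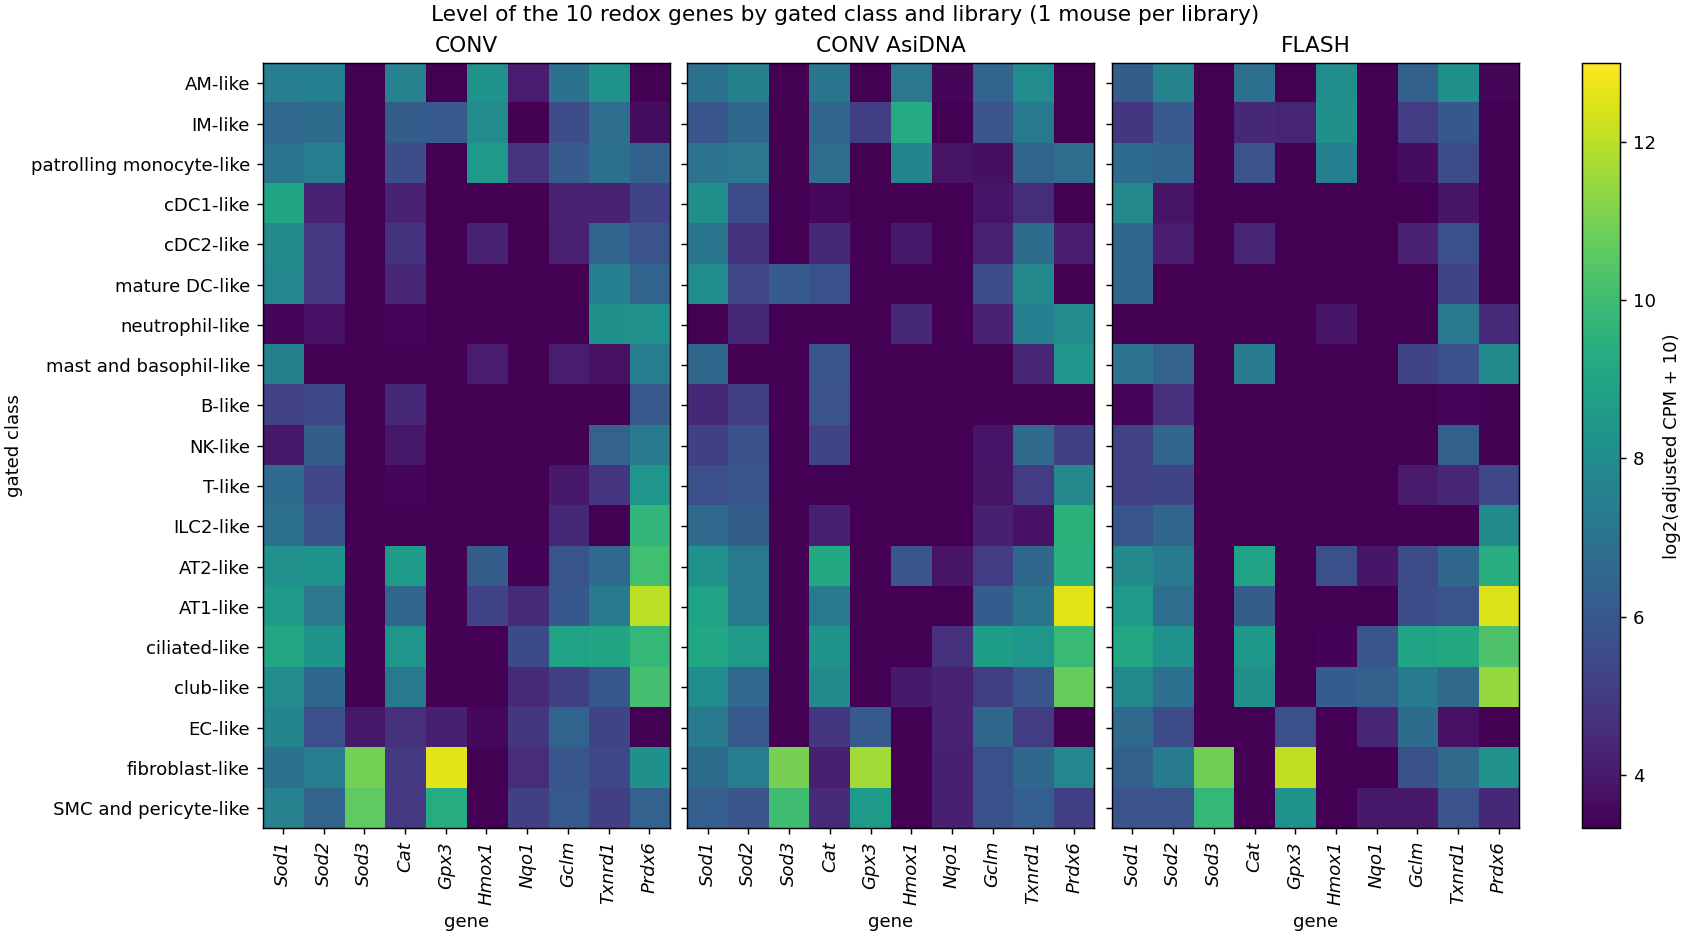
Level of the 10 redox genes (columns) in the 19 compared classes (rows), 1 panel per library, coloured by log2(adjusted CPM + 10). Sod3 and Gpx3 stand out in the fibroblast-like and SMC and pericyte-like rows, and Prdx6 in the AT1-like and club-like rows, in all 3 libraries.

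Each member was counted in every class where it had a summed count of at least 20 over the libraries compared. A value was called apart when the ratio of (adjusted CPM + 10) reached 2-fold. Between CONV and CONV AsiDNA 18 of 94 member and class values were apart, beside a background of 8.12% over all genes, with 9 higher in CONV (background 3.32%) and 9 lower (background 4.8%). Between CONV and FLASH 30 of 88 were apart (background 9.37%), 24 of them higher in CONV, where the background was 4.87%, and 6 lower, where it was 4.51%. Between CONV AsiDNA and FLASH 25 of 93 were apart (background 3.9%), 20 of them higher in CONV AsiDNA (background 2.62%) and 5 lower (background 1.28%). The intervals of the share of cells did not overlap for 21, 36 and 40 of these values, beside backgrounds of 16%, 18.2% and 8.13%. With a pseudocount of 50 the 18, 30 and 25 values apart became 4, 13 and 10 (backgrounds 2.13%, 2.94% and 1.14%). The 3 comparisons share libraries, so they are not separate evidence. Set against both other libraries at once, FLASH was at least 2-fold below in 15 of 99 values (background 2.12%) and above in 4 (background 0.63%). CONV was above both in 7 (background 2.02%) and below both in 4 (background 3.13%). CONV AsiDNA was above both in 4 (background 0.732%) and below both in 0 (background 0.541%). Low values in FLASH were thus the most frequent, and 3 of its 4 high values fell in club-like cells.

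In club-like cells Hmox1, Nqo1 and Gclm were higher in FLASH than in either CONV library. The class held 73, 133 and 76 cells in CONV, CONV AsiDNA and FLASH. Gclm, the modifier subunit of the enzyme that limits glutathione synthesis, stood at 25.7, 24.3 and 148 adjusted CPM in CONV, CONV AsiDNA and FLASH. It was above 0 in 11% (4.85 to 20.5), 12% (7.04 to 18.8) and 51.3% (39.6 to 63.0) of the cells. Nqo1, which reduces quinones by 2 electrons, stood at 12.9, 8.57 and 68.0 adjusted CPM. Its share of cells was 6.85% (2.26 to 15.3), 4.51% (1.67 to 9.56) and 27.6% (18 to 39.1). Hmox1, which degrades haem to biliverdin, carbon monoxide and iron, was listed at 0 in CONV and stood at 5.71 in CONV AsiDNA and 60.7 in FLASH. It was above 0 in none of 73, in 4 of 133 (3.01%, 0.825 to 7.52) and in 15 of 76 cells (19.7%, 11.5 to 30.5). These were the 3 of 8 compared members at least 2-fold above both other libraries in club-like FLASH cells, beside 3.14% of all genes compared in this class. Singly, 4 of 8 members were 2-fold lower in CONV than in FLASH (background 10.9%) and 3 of 8 were lower in CONV AsiDNA than in FLASH (background 7.36%). Under a gate of at least 4 markers the log2 ratios of CONV AsiDNA over FLASH for Hmox1 (-0.95) and of CONV over FLASH for Nqo1 (-0.97) fell short of 2-fold, while Gclm stood at -2.78 for CONV over FLASH. The same 2 ratios also fell short with a pseudocount of 50, at -0.99 and -0.91.

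Txnrd1, the cytosolic thioredoxin reductase, followed with smaller differences. Its level in club-like cells was 51.5, 50.0 and 92.2 adjusted CPM, a log2 ratio of CONV over FLASH of -0.73, short of 2-fold, which became -1.29 and -1.33 with gates of at least 2 and at least 4 markers. Prdx6 stood at 1132, 1727 and 2845 adjusted CPM, with a log2 ratio of CONV over FLASH of -1.32, or -0.84 and short of 2-fold with the 4-marker gate, and was above 0 in 91.8% to 98.7% of cells. Cat, which breaks down hydrogen peroxide in peroxisomes, stood at 152, 229 and 272, below 2-fold. The dismutases of the same cells stood close together in the 3 libraries. Sod1, the cytosolic copper and zinc enzyme, stood at 247, 250 and 231 adjusted CPM and Sod2, the mitochondrial manganese enzyme, at 84.9, 90.0 and 107. Sod3 and Gpx3 were listed at 0.

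**Figure D2:**
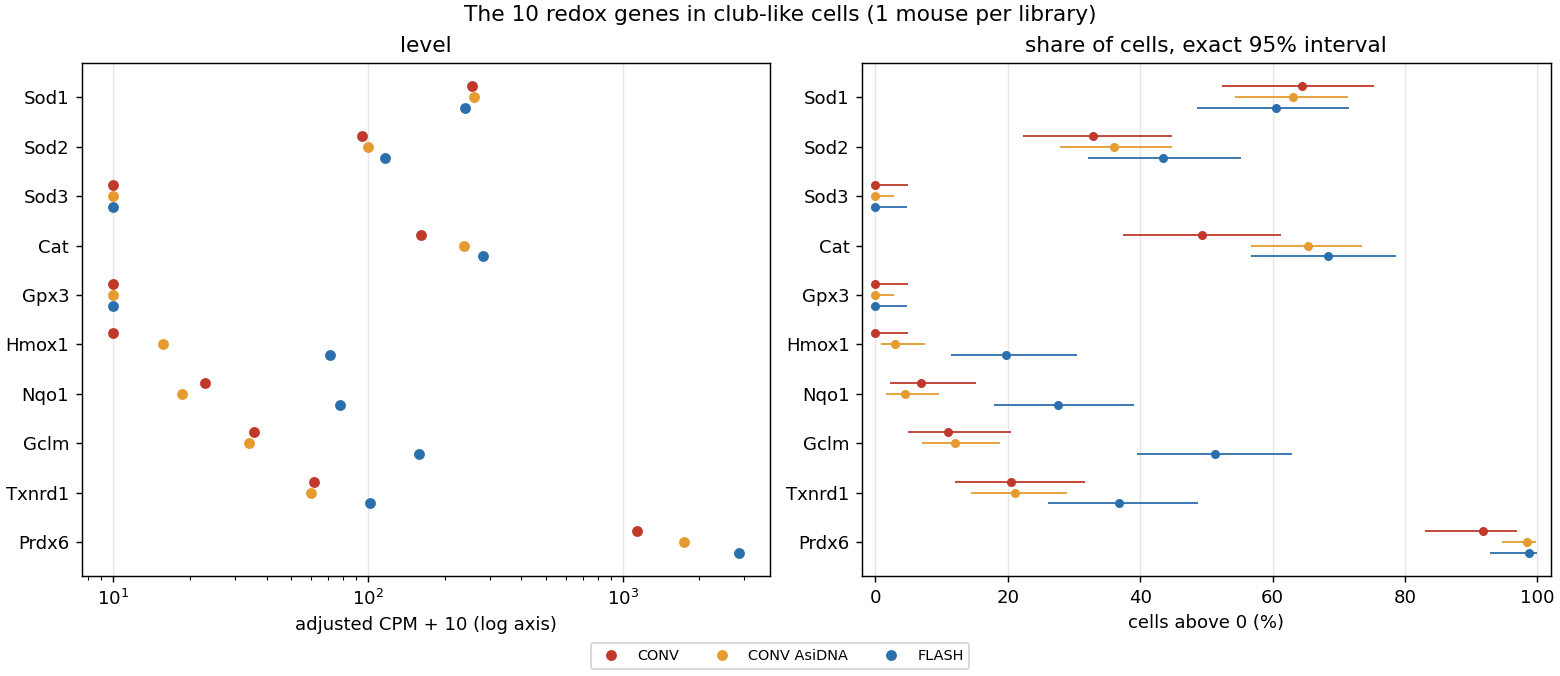
The 10 genes in club-like cells of the 3 libraries: left, adjusted CPM + 10 on a log axis; right, the share of cells above 0 with exact 95% intervals. The FLASH points for Hmox1, Nqo1 and Gclm lie to the right of both CONV libraries, while the points for Sod1 and Sod2 overlap.

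At least 2 of Hmox1, Nqo1, Gclm and Txnrd1 were above 0 in 4 of 73 CONV cells (5.48%, 1.51 to 13.4), 8 of 133 CONV AsiDNA cells (6.02%, 2.63 to 11.5) and 32 of 76 FLASH cells (42.1%, 30.9 to 54.0). These counts move with the higher single-gene shares already given and are no separate measure of joint expression. Among the 39 FLASH cells with Gclm above 0, Nqo1 was above 0 in 16 and Hmox1 in 11. Among the 37 without Gclm, Nqo1 was above 0 in 5 and Hmox1 in 4. In CONV, Nqo1 was above 0 in 1 of 8 cells with Gclm and in 4 of 65 without it, and Hmox1 was at 0 in all 73. Within CONV AsiDNA, Nqo1 was above 0 in 1 of 16 cells with Gclm and 5 of 117 without it, and Hmox1 in 0 of 16 and 4 of 117. The median Prdx6 count was higher in cells with Gclm than in those without it in each library, at 7.5 and 5 in CONV, 9.5 and 7 in CONV AsiDNA, and 16 and 12 in FLASH. Scgb1a1, the secretoglobin that defines club cells, took most of the counts of the class, and its level was 608086, 649572 and 617577 adjusted CPM. The CPM of any other club-like gene moves with it, and without the gate markers in the denominator Gclm stood at 76.1, 82.8 and 460 on the same scale. Median totals per cell were close, at 5535, 5459 and 5575 adjusted counts. They were taken after the unknown adjustment, so they do not show whether sequencing depth was alike. With every cell thinned to 1000 adjusted counts, Gclm was above 0 in 2.74%, 2.26% and 9.21% of cells and Nqo1 in 1.37%, 1.50% and 10.5%, and the intervals then overlapped, since little is left of genes this low.

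Markers of other cells were looked at in the club-like class. The summed level of 8 ciliated markers in club-like cells was 298, 430 and 262 adjusted CPM, lowest in FLASH, although 6 of the 8 were above 0 somewhere in FLASH and 1 in each other library. Ciliated-like cells carry far more Gclm and Txnrd1. Hmox1 was listed at 0 in them in both CONV libraries and above 0 in 1 of 328 FLASH cells. No AM marker was above 0 in club-like cells of any library. Markers of IM-like and patrolling monocyte-like cells, the classes with the highest mean Hmox1, are not given. Limiting the class to cells with at most 1 of the secretory genes Scgb3a1, Bpifa1, Muc5b and Reg3g left 51, 100 and 59 cells, with Gclm at 30.0, 15.7 and 142 adjusted CPM and Hmox1 at 0, 5.87 and 74.3. Median mitochondrial shares of club-like cells were 0.197%, 0.699% and 1.72%, and the summed level of 12 immediate early and dissociation genes was 7397, 5264 and 4943 adjusted CPM. The part of these in the result was not tested.

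Other redox genes were also higher in FLASH club-like cells. Of 61 genes in 7 lists around the members, 40 could be compared, and 10 were at least 2-fold higher in FLASH than in both other libraries (background 3.14%), while none was lower than both (background 5.9%). They are named here after their values were seen. Gstm1, a glutathione transferase, stood at 316, 517 and 1313 adjusted CPM. Txn1, the thioredoxin that Txnrd1 reduces, stood at 36.0, 109 and 250. Pgd, an enzyme of the pentose phosphate pathway that makes NADPH, stood at 30.9, 38.6 and 141. Cbr1, a carbonyl reductase, stood at 92.6, 68.6 and 223, and Blvrb, a biliverdin reductase, at 20.6, 8.57 and 80.1. The other five, Slc7a11, Taldo1, Tkt, Fth1 and Ftl1, were listed at 0 in CONV. Slc7a11, the cystine importer, reached 77.7 in FLASH, and Ftl1 went from 0 to 401 and 2962. Of all 75 genes above both in FLASH, 60 were above 0 in every library. A listing at 0 in a CONV class where FLASH had at least 50 adjusted CPM was uncommon in club-like cells, 17 of 757 genes, but 6 of the 17 are redox genes described here, namely Hmox1, Slc7a11, Taldo1, Tkt and both ferritins. The other 11 included genes that nearly every cell uses, such as Actb and 5 mitochondrial genes, and the Hmox1 value in CONV is one of these listings at 0. The part of the adjustment made before deposit was not tested.

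Of the regulators, Nfe2l2 in club-like cells stood at 97.8, 173 and 99.5 adjusted CPM, Keap1 at 20.6, 11.4 and 21.8, and Bach1 at 2.57, 4.28 and 4.86. Bach1 was too low for a 2-fold ratio to be reached with the pseudocount. The metallothioneins were highest in CONV instead. Mt1 and Mt2, small metal-binding proteins, stood at 301 and 139 adjusted CPM in CONV and were listed at 0 in both other libraries.

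In ciliated-like cells, the highest class for Gclm and Txnrd1, the FLASH and CONV libraries stood closer together. Gclm stood at 467, 409 and 493 adjusted CPM and was above 0 in 75.3% to 85.4% of cells. Txnrd1 stood at 510, 328 and 581, lowest in CONV AsiDNA. Nqo1 stood at 35.1, 16.3 and 50.3, and its log2 ratio of CONV AsiDNA over FLASH was -1.20, or -0.60 with a pseudocount of 50 (background of genes at least 2-fold lower 0.761%). The share of cells with Nqo1 was 12.6% (9.09 to 16.9), 6.22% (4.10 to 8.98) and 15.9% (12.1 to 20.3), so CONV AsiDNA lay below both other libraries. Intervals were apart between CONV and CONV AsiDNA for 12.1% of all genes in this class. CONV AsiDNA was thus the lowest library for Gclm, Txnrd1 and Nqo1 in this class. Club markers in ciliated-like cells summed to 11836, 47703 and 80632 adjusted CPM, highest in FLASH. The immediate early and dissociation genes summed to 5338, 3598 and 5893 adjusted CPM and the median mitochondrial shares were 2.90%, 2.25% and 3.44%, both lowest in CONV AsiDNA. The part of these in the values was not tested.

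Sod1, compared in more classes than any other member, also had the same order of libraries in most of them. It was higher in CONV than in FLASH in 17 of the 18 classes in which it could be compared, and it ran CONV, CONV AsiDNA, FLASH from high to low in 13 of 18. Over the 2857 genes compared in at least 15 classes, the median gene had CONV above FLASH in 50% of classes, and 0.455% of these genes reached the share of Sod1. The descending order was reached that often by 0.175% of them. The other members compared in at least 15 classes were Sod2 and Txnrd1. CONV was above FLASH in 12 of 16 classes for Sod2 and in 11 of 15 for Txnrd1. The descending order was found in 6 and 5 of these classes. Sod1 was thus the most extreme of these members on both counts, so its percentages over all genes are a description and not a test. The classes share the same 3 mice and libraries and are not replicates. Gm42418 had CONV above FLASH in all 19 classes, as had Cirbp and Rbm3, both cold-inducible RNA-binding proteins, so a regular order was not particular to redox genes.

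The size of the Sod1 difference depended on the class. In AM-like cells it stood at 166, 113 and 61.6 adjusted CPM and was above 0 in 55.4% (52.2 to 58.5), 41.9% (38.1 to 45.7) and 24.7% (20.9 to 28.9) of cells. All 3 intervals were apart, as they were between CONV and FLASH for 35.5% of all genes in this large class, and with cells thinned to 1000 adjusted counts the shares were 15.4%, 10.7% and 7.34%. In T-like cells it stood at 94.4, 40.9 and 26.9, with 19.2% (17.2 to 21.4), 10.3% (8.50 to 12.4) and 6.07% (4.79 to 7.57) of cells above 0 (27.1% of all genes had intervals apart between CONV and FLASH there). In IM-like cells Sod1 stood at 90.3, 49.7 and 19.3, and in SMC and pericyte-like cells at 185, 64.8 and 45.4. CONV was at least 2-fold above FLASH in 10 classes, AM-like, IM-like, cDC1-like, cDC2-like, mature DC-like, B-like, T-like, ILC2-like, EC-like and SMC and pericyte-like, with log2 ratios from 1.01 in EC-like to 1.81 in SMC and pericyte-like cells. With a pseudocount of 50 only 4 of the 10 (IM-like, cDC1-like, cDC2-like and SMC and pericyte-like) stayed at 2-fold or more, and the other 6 stood between 0.59 in B-like and 0.98 in mature DC-like cells. The EC-like ratio fell to 0.96 with cells weighted equally. AM-like and EC-like cells were not the same mixture in each library. A gate with Spp1 and Gpnmb took 782 of 1004 AM-like cells in CONV and 92 of 477 in FLASH. Car4 Ednrb capillary cells made up 16.7% of EC-like cells in CONV and 37.1% in FLASH. The part of these mixtures in Sod1 was not tested. Airway and alveolar epithelium showed little of the Sod1 difference. Ciliated-like cells stood at 550, 531 and 531 adjusted CPM, AT2-like cells at 287, 287 and 227, and AT1-like cells at 380, 474 and 362. NK-like cells went the other way at low levels, with 5.21, 25.4 and 27.7, where the CONV value is 1 adjusted count in 67 cells.

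**Figure D3:**
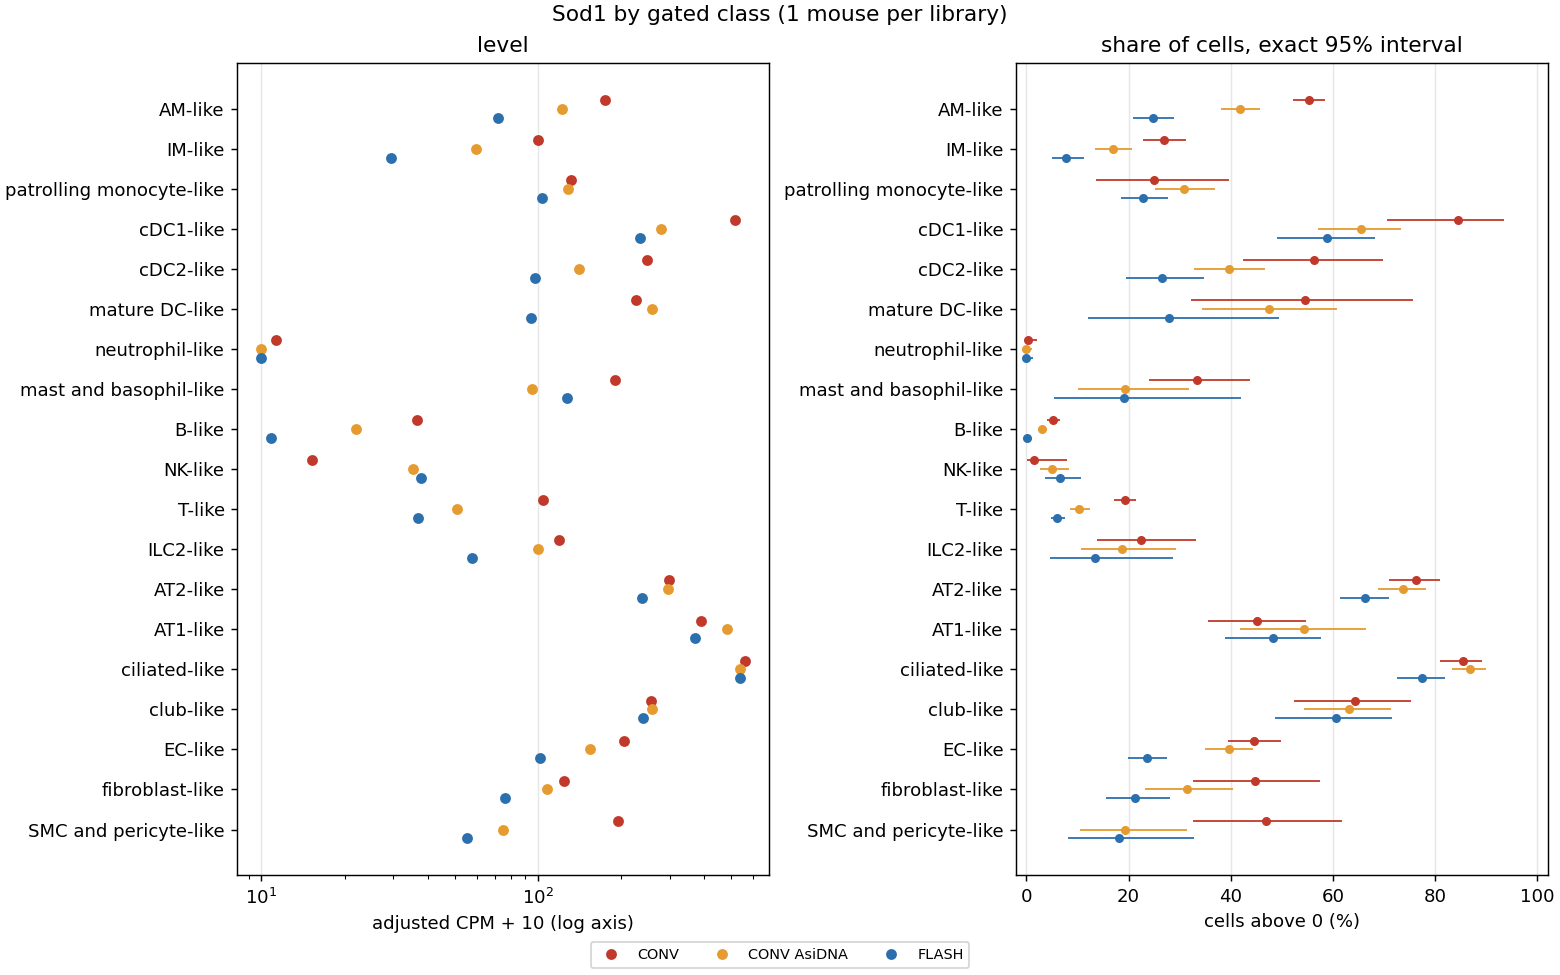
Sod1 in the 19 compared classes of the 3 libraries: left, adjusted CPM + 10 on a log axis; right, the share of cells above 0 with exact 95% intervals. CONV lies to the right of FLASH in 17 of the 18 classes with enough counts, and the points nearly coincide in ciliated-like and club-like cells.

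In AT2-like cells, the surfactant-producing cells of the alveolus, Sod2 stood at 306, 142 and 147 adjusted CPM, with log2 ratios of CONV of 1.06 over CONV AsiDNA and 1.01 over FLASH. These lie at the 2-fold limit and fall to 0.95 and 0.89 with a gate of at least 2 markers. It was above 0 in 71.9% (66.4 to 76.9), 46.6% (41.3 to 52.0) and 49.7% (44.6 to 54.9) of cells, so CONV lay apart from both others (background for CONV and CONV AsiDNA 17.4%). The immediate early and dissociation genes summed to 11742, 8913 and 8777 adjusted CPM in AT2-like cells, highest in CONV. Their median mitochondrial shares were 1.10%, 2.38% and 4.85%, lowest in CONV. The part of both was not tested. In AM-like cells, where Sod2 was as abundant, it was even at 173, 183 and 190, and in fibroblast-like cells at 162, 159 and 151. In cDC1-like cells it was highest in CONV AsiDNA, at 9.44, 36.1 and 4.13, with larger log2 ratios at these lower levels (-1.25 between CONV and CONV AsiDNA, 1.71 between CONV AsiDNA and FLASH).

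Sod3 was carried by the stromal cells. In fibroblast-like cells it stood at 2002, 2054 and 1892 adjusted CPM and was above 0 in 89.6% to 96.6% of cells, so the libraries stood close together. In SMC and pericyte-like cells it stood at 1597, 1033 and 857, a log2 ratio of CONV over FLASH of 0.89. The 59.4 adjusted CPM in mature DC-like cells of CONV AsiDNA rested mainly on 1 cell, which held 13 of 15 counts.

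Gpx3 was highest in CONV in fibroblast-like cells and lowest in CONV in the Car4 Ednrb cells of the endothelium. In fibroblast-like cells it stood at 6170, 3229 and 4330 adjusted CPM, just short of 2-fold between CONV and CONV AsiDNA (log2 ratio 0.93). Dcn, a marker of this class, was above 0 in 59.7%, 51.2% and 30.9% of its cells, so the mixture may differ between libraries. The part of this was not tested. In the Col13a1 fibroblast-like cells, the alveolar type of fibroblast, Gpx3 stood at 9694, 4955 and 5421. It was above 0 in every cell of all 3 libraries. The immediate early and dissociation genes in these cells summed to 5911, 18163 and 15765 adjusted CPM, lowest in CONV. In EC-like cells CONV was the low library, with 8.24, 56.2 and 41.3, from 11, 94 and 74 adjusted counts. The log2 ratios of CONV over CONV AsiDNA and over FLASH were -1.86 and -1.49, and with a pseudocount of 50 they were -0.87 and -0.65. The EC-like class was not the same mixture in each library, since Car4 Ednrb cells, the aerocyte type of capillary, made up 61 of 366 (16.7%), 164 of 442 (37.1%) and 178 of 480 (37.1%). These cells held 2, 93 and 74 of the Gpx3 counts, and within them Gpx3 was above 0 in 2 of 61 CONV cells (3.28%, 0.400 to 11.3), 59 of 164 CONV AsiDNA cells (36.0%, 28.6 to 43.8) and 32 of 178 FLASH cells (18%, 12.6 to 24.4). CONV and CONV AsiDNA intervals were apart for 6.96% of all genes in these cells. The level of Gpx3 there was 8.84, 150 and 113 adjusted CPM. In the other capillary type, the Gpihbp1 EC-like cells, it was 11.3 in CONV and listed at 0 in both other libraries. Over all EC-like cells outside the Car4 Ednrb gate it was low, at 8.12, 0.951 and 0, and highest in CONV. No fibroblast marker was above 0 in EC-like cells of CONV AsiDNA or FLASH, and 1 of 9 was in CONV. The marker genes of Car4 Ednrb EC-like cells also summed lower in CONV, at 5948 against 9574 and 9799 adjusted CPM. The immediate early and dissociation genes summed to 12126, 4423 and 5950 in EC-like cells and to 3875, 2200 and 2686 in the Car4 Ednrb cells, highest in CONV, and their part was not tested in either cell class.

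Cat was highest in AT2-like cells, at 386, 581 and 498 adjusted CPM. In AM-like cells it fell from 186 in CONV to 130 and 106, and the part of the differing mixture of this class was not tested. IM-like cells held 61.7, 79.6 and 11.6, with 20.2% (16.6 to 24.1), 21.9% (18.1 to 26.1) and 3.40% (1.71 to 5.99) of cells above 0, so FLASH lay apart from both others (background against CONV AsiDNA 7.01%). Among B-like cells, Cat was above 0 in 2.02% (1.33 to 2.92) of CONV cells, in 11.3% (9.75 to 12.9) of CONV AsiDNA cells and in none of 1158 FLASH cells (background of intervals apart between CONV AsiDNA and FLASH 14.3%). Cat was also listed at 0 in FLASH, but not in CONV or CONV AsiDNA, in EC-like, fibroblast-like and SMC and pericyte-like cells, at levels of 7.85 to 20.5 adjusted CPM in those 2 libraries.

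Prdx6 differed in opposite directions in different lineages. In AT1-like cells it stood at 4201, 6193 and 5722 adjusted CPM, with CONV lowest. The 8 AT1 markers themselves summed to 23668, 38525 and 41444 adjusted CPM in the same cells, so CONV was low in both. In AT2-like cells it ran the other way, at 1063, 716 and 636, with log2 ratio 0.73 of CONV over FLASH. Among lymphoid cells and neutrophils FLASH was far lower than CONV. T-like cells stood at 322, 225 and 32.0 adjusted CPM and were above 0 in 51.7% (49.1 to 54.3), 39.9% (36.8 to 43.0) and 6.32% (5.01 to 7.84) of cells. Neutrophil-like cells stood at 284, 245 and 12.2 (intervals of the share apart between CONV and FLASH, background 18.4%), and ILC2-like cells at 827, 730 and 231. NK-like cells stood at 151 and 25.4 and were listed at 0 in FLASH. In B-like cells Prdx6 stood at 54.4 in CONV and was listed at 0 in both other libraries. Median mitochondrial shares were highest in FLASH in T-like cells (0.302%, 0.0756% and 1.37%) and ILC2-like cells (0.259%, 0.0316% and 1.21%). The same held in NK-like cells (0.0850%, 0.0293% and 0.245%) and B-like cells (2.18%, 1.36% and 2.92%). In neutrophil-like cells they were 0 in every library. The part of these was not tested.

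Markers of the epithelial cells rich in Prdx6 were looked at in those classes. In T-like cells no club marker was above 0 in any library, and the 9 AT2 markers summed to 1.32 adjusted CPM in CONV and to 0 in both others. The 8 AT1 markers summed to 109, 114 and 45.0, with 3, 1 and 1 of them above 0, so some AT1 marker signal was present and also lowest in FLASH. In NK-like cells AT1 markers summed to 136, 181 and 131 and AT2 and club markers to 0. In neutrophil-like cells AT2 markers summed to 42.5 and AT1 markers to 1.33 in CONV, both 0 in the other libraries. In ILC2-like cells the AT2, club and ciliated markers were all at 0, and 1 AT1 marker was above 0 in CONV. In B-like cells 1 AT2 marker was above 0 in every library, with sums of 582, 528 and 409, above the Prdx6 level of the class. The part of these markers in the Prdx6 values was not tested. EC-like cells had Prdx6 listed at 0 throughout, and in AM-like cells it was above 0 in 1 FLASH cell. How much of the drop to 0 was made by the adjustment before deposit was not tested. Among genes with at least 50 adjusted CPM in CONV, 12 of 2730 were listed at 0 in FLASH in NK-like cells, and in B-like cells 5 of 2115 were listed at 0 in FLASH and 1 in CONV AsiDNA.

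**Figure D4:**
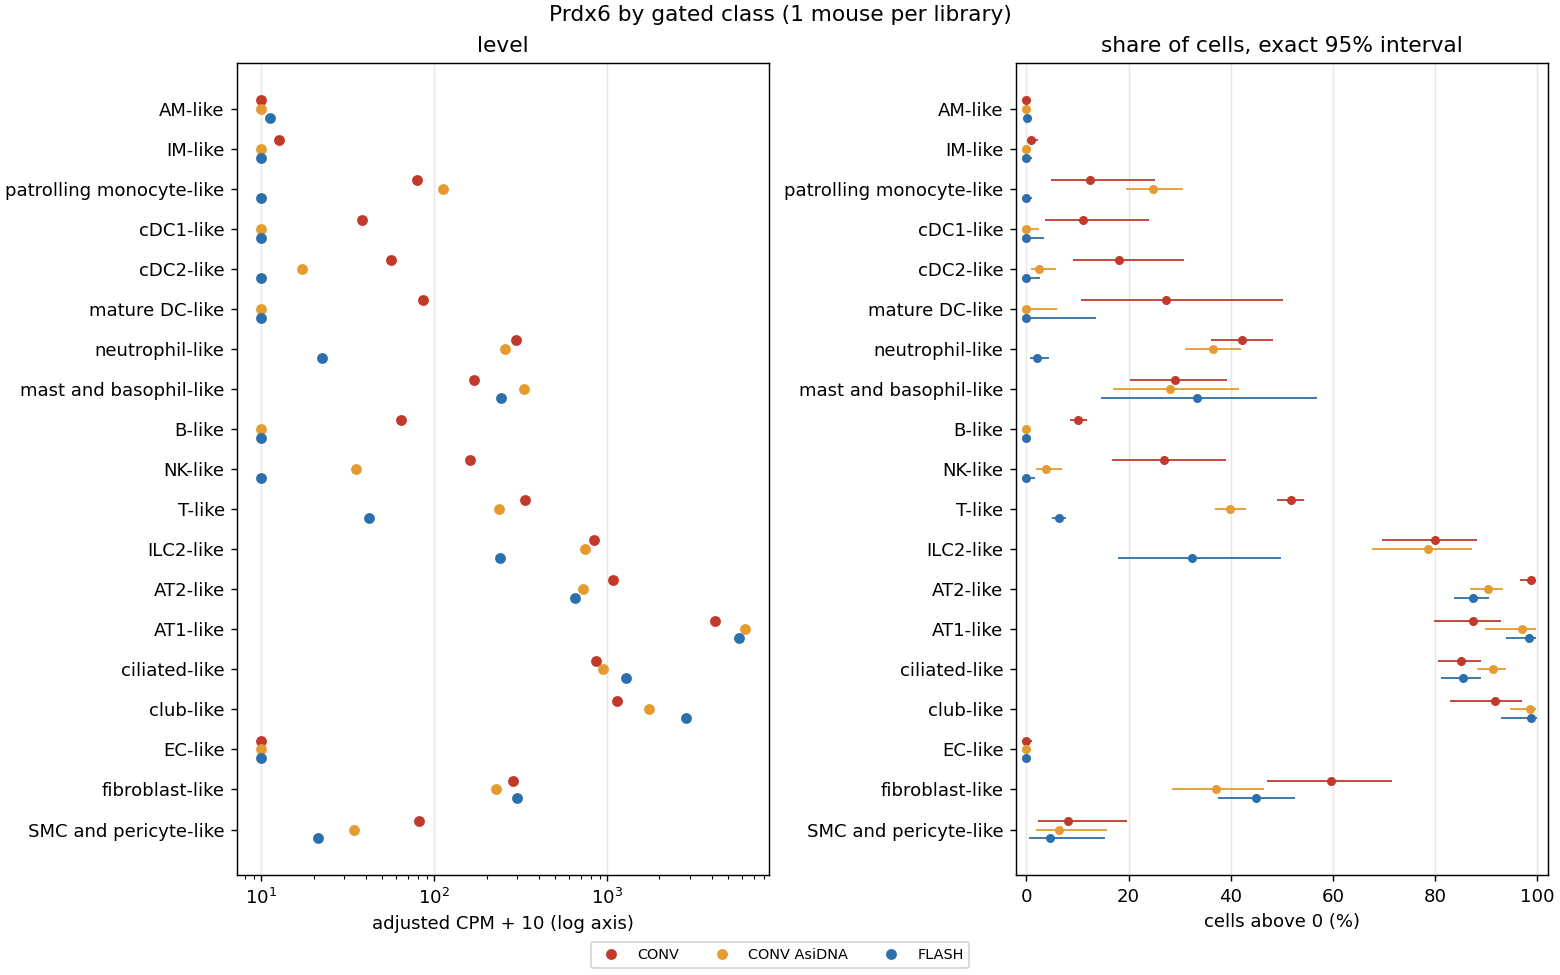
Prdx6 in the 19 compared classes of the 3 libraries: left, adjusted CPM + 10 on a log axis; right, the share of cells above 0 with exact 95% intervals. FLASH lies far to the left of both CONV libraries in T-like, ILC2-like and neutrophil-like cells and to the right of them, by level, in club-like and ciliated-like cells.

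Hmox1 in macrophages was highest in different libraries in AM-like and IM-like cells. In AM-like cells it stood at 294, 134 and 256 adjusted CPM and was above 0 in 60.0% (56.9 to 63.0), 42.8% (39.0 to 46.7) and 51.2% (46.6 to 55.7) of cells. The log2 ratio of CONV over CONV AsiDNA was 1.08, or 0.90 and short of 2-fold with a pseudocount of 50. The 8 IM markers summed to 204, 58.9 and 31.0 adjusted CPM in AM-like cells, also highest in CONV. The median mitochondrial shares of AM-like cells were 2.09%, 0.217% and 2.37%, lowest in CONV AsiDNA as Hmox1 was. The part of both was not tested. In IM-like cells it stood at 248, 613 and 281, with CONV AsiDNA highest and a log2 ratio of CONV over CONV AsiDNA of -1.28. The share of IM-like cells above 0 was 35.1% (30.8 to 39.7), 42% (37.3 to 46.8) and 38.0% (32.7 to 43.5), so the shares overlapped and the higher sum came from cells with many counts. In CONV AsiDNA 15 IM-like cells had 10 counts or more, beside 7 in CONV and 5 in FLASH, and the highest held 151.

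AM-like cells were not the same mixture in the 3 libraries. The gate with Spp1 and Gpnmb took 782 of 1004 AM-like cells in CONV, 182 of 666 in CONV AsiDNA and 92 of 477 in FLASH, and the gate with Ear1 and Krt79 took 75, 355 and 313. In Spp1 Gpnmb AM-like cells Hmox1 stood at 299, 198 and 248 adjusted CPM, all within 2-fold. In Ear1 Krt79 AM-like cells it stood at 119, 91.9 and 280, but 1 FLASH cell held 167 of 429 counts. Without the highest cell of each library these levels were 112, 89.9 and 172, and the log2 ratio of CONV over FLASH moved from -1.17 to -0.57 and that of CONV AsiDNA over FLASH from -1.51 to -0.86, both no longer 2-fold. The share of Ear1 Krt79 AM-like cells above 0 was 41.3% (30.1 to 53.3), 34.6% (29.7 to 39.9) and 47.3% (41.6 to 53.0). In patrolling monocyte-like cells the levels of 354, 200 and 172 also rested on few cells, and without the highest they were 113, 135 and 91.1.

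**Figure D5:**
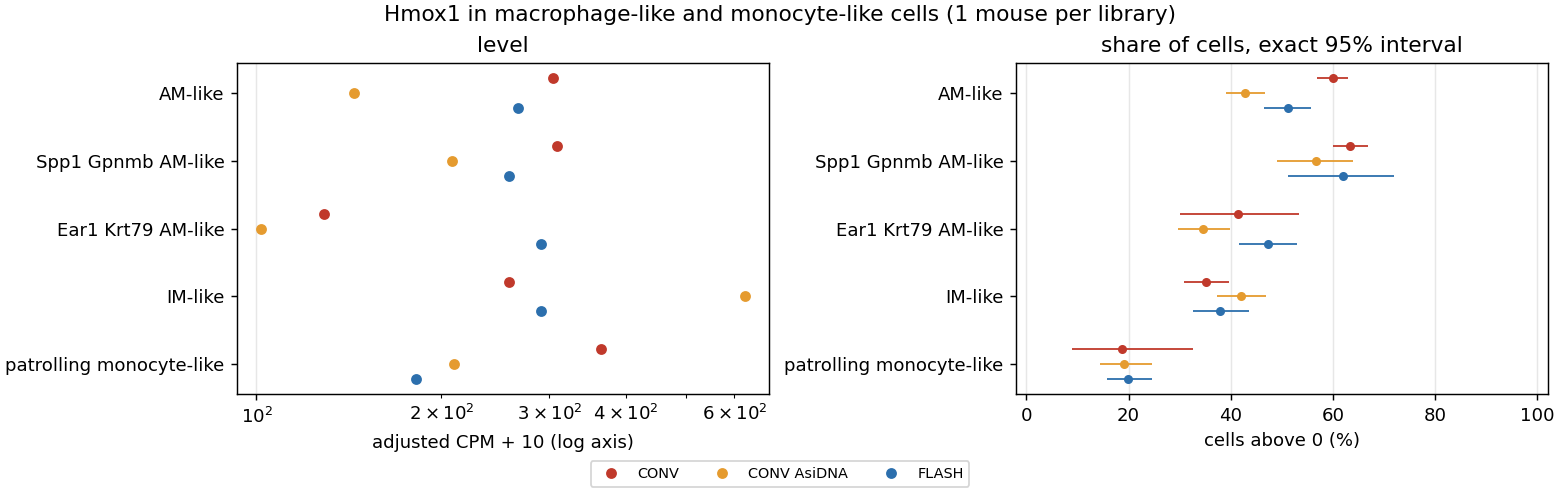
Hmox1 in macrophage-like and monocyte-like cells of the 3 libraries: left, adjusted CPM + 10 on a log axis; right, the share of cells above 0 with exact 95% intervals. CONV AsiDNA is highest in IM-like cells by level, at 613, while the shares of cells overlap there.

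The remaining targets in AM-like cells differed less. In AM-like cells Txnrd1 stood at 300, 245 and 276 adjusted CPM and Gclm at 112, 79.0 and 71.0. At least 2 of the 4 Nrf2 targets were above 0 in 63.8% (60.8 to 66.8) of CONV, 46.7% (42.9 to 50.6) of CONV AsiDNA and 49.3% (44.7 to 53.9) of FLASH AM-like cells. These values are for the mixed class, and the part of the mixture was not tested. Of the wider redox lists, 51 genes could be compared in AM-like cells and 5 were at least 2-fold higher in CONV than in both other libraries (background 1.62%). They were Gstm1 at 583, 235 and 272 adjusted CPM, Mt2 at 323, 153 and 93.9, the iron exporter Slc40a1 at 34.0, 7.32 and 5.52, Ephx1 and Akr1b8. Of these genes, Slc40a1, Ephx1 and Mt2 were 2-fold above both within Spp1 Gpnmb AM-like cells. Within Ear1 Krt79 AM-like cells Gstm1, Slc40a1 and Ephx1 were. No share over all genes is given for these gates, so this is a description only. Gstm1 stood at 638, 435 and 586 in the Spp1 Gpnmb cells, so its difference there was within 2-fold. Nfe2l2 was lowest in CONV AM-like cells, at 163, 344 and 300. In the Ear1 Krt79 AM-like cells alone Nfe2l2 stood at 174, 355 and 317, so the order held within this gate. That gate took only 75 of 1004 AM-like cells in CONV. Nfe2l2 is not given for the Spp1 Gpnmb gate, which took 782.

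Txnrd1 had ratios of CONV over FLASH of opposite sign in fibroblast-like and EC-like cells, -1.20 and 1.58 on the log2 scale, but with a pseudocount of 50 these were -0.75 and 0.58, both short of 2-fold. In fibroblast-like cells it stood at 33.7, 86.3 and 90.6 adjusted CPM, lowest in CONV, and was above 0 in 11.9% (5.30 to 22.2), 26.4% (18.8 to 35.2) and 27.5% (21.1 to 34.7) of cells, with overlapping intervals. In EC-like cells it stood at 30.0, 22.7 and 3.35, lowest in FLASH, and in mature DC-like cells at 173, 226 and 28.3. In AT1-like cells it stood at 151, 122 and 47.8. In neutrophil-like cells, behind ciliated-like and AM-like cells in mean level, it stood at 279, 170 and 138, within 2-fold on the scale with the pseudocount. The immediate early and dissociation genes summed to 4820, 1932 and 1058 adjusted CPM in AT1-like cells, highest in CONV as Txnrd1 was. In fibroblast-like cells they summed to 12865, 18093 and 19426, lowest in CONV as Txnrd1 was. Median mitochondrial shares of AT1-like cells were 0.411%, 0.447% and 1.95%. The part of these was not tested. Gclm in EC-like cells was even, at 77.1, 85.5 and 98.3.

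The genes whose level over the 19 classes was most like that of a member were found by Pearson correlation of the mean log2(adjusted CPM + 10), over 9189 genes, and are given as a description. S1pr3 was nearest to Sod3 (r = 0.99), Prelp to Gpx3 (0.98), Acaa2 to Sod2 (0.94), Chka to Cat (0.93), Adgre1 to Hmox1 (0.92), Slc23a2 to Gclm (0.91), Pir to Nqo1 (0.90), Isg20 to Prdx6 (0.84), Ndufc2 to Sod1 (0.81) and Anxa2 to Txnrd1 (0.73). Prelp encodes a matrix protein of connective tissue, Adgre1 the macrophage surface protein F4/80 and Acaa2 a mitochondrial enzyme of fatty acid oxidation. These correlations share the same cells and libraries and carry no p-value.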

How the data were processed

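Lungs of 3 mice were dissociated and profiled by droplet single-cell RNA sequencing. Per the labels' processing notes Cell Ranger 6.0.0 and mm10 were used, and the study's methods name R and Seurat. The authors deposited 1 table per library holding the natural log of 1 + a whole number for 22954 genes. Reversing the log gave whole numbers within 1e-04 for every value. Genes used by nearly all cells are at 0 in whole classes, so the numbers had been adjusted, in a way the sources used here do not state. They were therefore treated as adjusted counts, with no counting interval and no count model. The 3 libraries share 9 to 17 barcodes by pair. A further 4 deposited tables, with 12 per-sample columns of other samples, were not used.

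A cell was given the class with the largest share of its markers above 0, from at least 3 markers (2 for sub-classes) and 200 genes. Ties (57 cells), cells with 3 markers of another compartment (131 cells, the treatment of doublets) and cells with no gate (414) were left out. No doublet caller was run. Adjusted counts were summed per class and library and scaled to 1000000. Ratios were log2 of (adjusted CPM + 10), called at 2-fold with a summed count of at least 20. The calling of ratios was tested on simulated Poisson sums for club-like, AM-like and T-like cells. These had no spread between cells or mice and no adjustment, so they do not show how reliable the calls are here. Thinning drew 1000 adjusted counts per cell. Shares have exact 95% intervals. Named were the 10 members, Nfe2l2, Keap1, Bach1, up to 3 genes of each wider list per class with the largest CONV difference, and the nearest genes of each member. The genes high in FLASH club-like cells, Cirbp, Rbm3 and Gm42418 fall outside this rule. The members, markers and lists were chosen with earlier results of these data known. The alternatives were other pseudocounts, count minimums, folds, gates, cell weights and denominators, centring, and leaving out cells or the club-like class. Python 3.11.15, numpy 2.4.6, scipy 1.17.1 and matplotlib 3.10.9 were used. Promoters came from RefSeq (GRCm38.p6).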

Additional observations from a re-analysis of the deposited data

Results flagged for a closer look

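Each of 9 results ran at least 2-fold one way in one class and at least 2-fold the other way in another under the same contrast. With 1 mouse per condition none of these differences was tested, and each is given as the log2 ratio in the 2 classes and their difference. Only 5 of the 18 class ratios stayed at 2-fold or more with a pseudocount of 50, and Prdx6 was the 1 result where both classes did. The NK-like Sod1 level in CONV was 1 adjusted count in 67 cells, and the cDC1-like Sod2 level 2 counts in 45. For CONV over CONV AsiDNA, Sod1 was 1.38 in SMC and pericyte-like and -1.22 in NK-like cells, a difference of 2.60. Sod2 was 1.06 in AT2-like and -1.25 in cDC1-like cells, a difference of 2.30. Gpx3 was 1.00 in IM-like and -1.86 in EC-like cells, a difference of 2.86. Hmox1 was 1.08 in AM-like and -1.28 in IM-like cells, a difference of 2.35. For CONV over FLASH, Gpx3 was 1.78 in IM-like and -1.49 in EC-like cells, a difference of 3.27. Txnrd1 was 1.58 in EC-like and -1.20 in fibroblast-like cells, a difference of 2.78. Prdx6 was 4.01 in NK-like cells, where FLASH was listed at 0 so that the ratio depends on the pseudocount, and -1.32 in club-like cells, a difference of 5.33. For CONV AsiDNA over FLASH, Cat was 2.49 in B-like cells, with FLASH again listed at 0, and -1.38 in mast and basophil-like cells, a difference of 3.87. The mast and basophil-like class (96, 57 and 21 cells for CONV, CONV AsiDNA and FLASH) was a different mixture in each library, with the basophil protease Mcpt8 above 0 in 6.25%, 50.9% and 76.2% of cells and the mast cell protease Mcpt4 in 87.5%, 42.1% and 14.3%, and the part of this was not tested. Hmox1 was 1.10 in IM-like and -2.17 in club-like cells, a difference of 3.27.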

How the results depend on the processing

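None of the 47 named log2 ratios changed sign under the alternatives run. The median gene of a class stood between -0.18 (AM-like, CONV over CONV AsiDNA) and 0.34 (mast and basophil-like, CONV over FLASH). The 18 member and class values 2-fold apart between CONV and CONV AsiDNA became 4 with a pseudocount of 50, 29 with no minimum sum and 34 at 1.5-fold. The 30 between CONV and FLASH became 13, 53 and 48 under the same settings. The 25 between CONV AsiDNA and FLASH became 10 with a pseudocount of 50, 16 with a minimum sum of 50 and 39 at 1.5-fold. In the wider lists a pseudocount of 50 took 131 of 614, 142 of 592 and 72 of 612 to 63, 69 and 26 (10.3%, 11.7% and 4.25%), while over all genes it took 8.12%, 9.37% and 3.9% to 2.13%, 2.94% and 1.14%, and the members then stood at 4.26%, 14.8% and 10.8%. Of the 47 log2 ratios, 12 moved with a pseudocount of 1, 20 with a pseudocount of 50 and 6 with a gate of at least 4 markers. Of the 35 at 2-fold or more, 16 fell short with a pseudocount of 50, among them Sod1 in AM-like (0.95), T-like (0.91) and B-like cells (0.59), Txnrd1 in EC-like (0.58) and fibroblast-like cells (-0.75 for CONV over FLASH), Hmox1 in AM-like (0.90) and Gpx3 in IM-like cells (0.86), and 4 fell short with the 4-marker gate. Centring on the median gene, weighting cells equally and a denominator without Gm42418, AY036118 and mitochondrial genes moved none of the 47, though 2, 1 and 1 ratios at the limit fell just short of 2-fold under equal weights, centring and that denominator. Calls were also gained, 1 with centring, 3 with a gate of at least 2 markers and 1 with at least 4. The 2-marker gate lost 2. Alternatives chosen after seeing the data left out the gate markers (1 moved), the highest cell (2 moved, Hmox1 in Ear1 Krt79 AM-like cells, to -0.86 and -0.57), club-like cells rich in secretory markers (0 of 9 moved) or the club-like class, which left 18, 26 and 22 values apart. Thinning lowers every share by construction, and 35 of 36 moved. No paired analysis was possible because each group has 1 library, and no replicate could be left out. Depth limits the genes near 1 adjusted count per cell or below, and the unknown adjustment before deposit limits what a listing at 0 means.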
